A study of Mus musculus with 18 samples.

Results

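The cAMP pathway was followed through 10 genes in 18 libraries from mouse germ cell cultures: the phosphodiesterases Pde4a, Pde4b, Pde4d and Pde3b, the protein kinase A (PKA) subunits Prkaca, Prkacb and Prkar1a, the transcription factors Creb1 and Crem, and the kinase Sik1. The genes were taken by symbol, and all 10 were found among 34850 genes with a value. The series asked how cyclosporin A and fibroblast growth factors act on cultures of primordial germ cell-like cells (PGCLCs), which are made from embryonic stem cells (ESCs) through epiblast-like cells (EpiLCs). The culture medium described in the protocol acts on this pathway, because it contains forskolin, an activator of adenylyl cyclase, and rolipram, an inhibitor of the PDE4 enzymes.

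Cyclic AMP is made from ATP by adenylyl cyclases, which stimulatory and inhibitory G proteins control. It binds the regulatory subunits of PKA and sets the catalytic subunits free, and these phosphorylate CREB-family transcription factors bound at cAMP response elements. Phosphodiesterases end the signal by breaking cAMP down. Forskolin is a long-known mitogen for primordial germ cells in culture.

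The libraries fell into 9 groups of 2. ESCs (in 2i and LIF), EpiLCs (in activin A, FGF2 and KSR) and PGCLCs on day 4 of induction (with BMP4, LIF, SCF and EGF) came from the C57BL/6 strain with the Blimp1-mVenus and Stella-ECFP reporters; the PGCLCs had been sorted for mVenus, whereas ESCs and EpiLCs were unsorted. E9.5c5 CsA and E9.5c5 FR10 were primordial germ cells of embryonic day 9.5, from B6D2F1 x C57BL/6 mice with Stella-EGFP, cultured for 5 days and sorted for EGFP. The d4c7 CsA, d4c7 FGF10, d4c7 FGF2 and d4c7 FR10 groups were day-4 PGCLCs of B6D2F1 background with the same reporters as the ESCs, cultured for 7 days and sorted for mVenus. Cultured cells grew on mitomycin-treated m220-5 feeders that had been adapted to forskolin and rolipram, and the medium given in the protocol held SCF, serum, rolipram and 10 µM forskolin. FR10 is the protocol's name for forskolin and rolipram together. The doses of CsA, FGF2 and FGF10 were not given in the sources used here, nor was it stated whether the 10 in FGF10 names the factor or an amount. The protocol describes a single medium with forskolin and rolipram and does not say separately that these agents were in the CsA and FGF cultures.

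Values are RPM, reads scaled to a common library total, from 3′-end sequencing (SC3-seq) of cDNA amplified from 1 ng of RNA. A transcript gives reads from its end only, so RPM is not scaled to length. The smallest steps between values put the libraries at 2129398 to 7547671 reads, so 3 reads corresponded to 0.397 to 1.41 RPM. Of 9 germ cell markers tested, 7 were called higher and none lower in day-4 PGCLCs than in EpiLCs. Of all genes, 27.5% were called higher and 12.1% lower. The 9 markers summed to 1716 and 1565 RPM in day-4 PGCLCs, against 69.0 and 80.9 RPM in EpiLCs. Prdm1 (Blimp1), whose reporter the cells were sorted on, is among them. Dazl was not called and stood at 2.35 and 3.48 RPM in day-4 PGCLCs, against 12.2 and 11.2 RPM in EpiLCs, and Ddx4 was not called either, at 5.17 and 12.2 RPM in day-4 PGCLCs, against 18.7 and 18.6 RPM in EpiLCs. Replicates differed by a median of 0.193 (ESC) to 0.601 (E9.5c5 CsA) on the log2 scale. The widest gaps were those of d4c7 FGF2 (0.468), E9.5c5 FR10 (0.426) and E9.5c5 CsA (0.601). Replicate 2 of each of these 3 groups, which an earlier look at these data had set apart, was left out together in an alternative fit. Replicates of the cultured groups are called biological in the protocol. Nothing says so for ESCs, EpiLCs and day-4 PGCLCs, where p-values may reflect technical spread. In such bulk RNA, fewer cells of a type and less RNA per cell cannot be told apart.

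Cyclic AMP response elements in the promoters are shown first, since CREB acts there. RefSeq promoter windows (250 bases before to 50 after each start, GRCm38.p6) were at hand for 7 of the 10 genes, 20 windows in all. The palindrome TGACGTCA was found in 588 of 32851 windows of all genes (1.79%). Its core TGACG, in either orientation, was found in 6837 of them (20.8%). Of the 7 genes with a window, Prkar1a was the one with the palindrome, as a single site shared by 2 overlapping windows of its 6. It begins at -49 from the start site of one of these windows and at 38 from that of the other. A further window of Prkar1a held a core alone. Cores also stood in 1 window each of Pde4a, Pde4b, Prkaca and Prkacb, and no motif was in the single windows of Creb1 and Pde4d. Stretches around these sites follow, 5′ to 3′ on the gene's strand, with the motif in capitals. They lie at chr11:109650889-109650918 for Prkar1a, chr9:21184039-21184067 for Pde4a, chr4:102421509-102421537 for Pde4b, chr8:83972846-83972874 for Prkaca and chr3:146813032-146813060 on the minus strand for Prkacb.
Prkar1a: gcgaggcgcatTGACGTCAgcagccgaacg
Pde4a: ggcacagctcgaCGTCAggctggggagga
Pde4b: gatttggctgcaCGTCAattttctcatct
Prkaca: gtctgcaactcgCGTCActcatccaggag
Prkacb: ggggcttgaccgCGTCActtccggcgcgc
A match is a description of these letters and does not show that a factor binds.

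In GRCm38, the genes that passed a test lie at chromosome 9, 21165714 to 21213248 (Pde4a), chromosome 7, 114415281 to 114539251 (Pde3b), chromosome 11, 109649405 to 109669656 (Prkar1a) and chromosome 1, 64532645 to 64604548 (Creb1), all on the plus strand. Levels differed widely among the 10 genes. Prkar1a, the type I regulatory subunit, was the most abundant in read numbers, at a median of 88.9 RPM over 18 libraries with a range of 51.9 to 143 RPM. The catalytic subunits followed, Prkacb at a median of 35.7 RPM and Prkaca at 25.8 RPM. Creb1, the CREB transcription factor itself, had a median of 20.4 RPM, and Crem, its relative with activator and repressor forms, 11.1 RPM. Pde4a had a median of 13 RPM, Sik1 7.72 RPM, Pde4d 5.56 RPM, Pde3b 2.16 RPM and Pde4b 1.87 RPM. These RPM values are read numbers from transcript ends and order the genes only roughly.

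Of the 10 genes, 9 passed the filter of 10 RPM in at least 2 libraries and were tested among 9561 genes. Pde4b did not pass, since its highest value was 8.51 RPM. It was at 0 in both ESC libraries, at 5.91 and 8.51 RPM in EpiLCs and at 0.939 and 0.772 RPM in day-4 PGCLCs. In culture it lay between 0 (E9.5c5 CsA replicate 2) and 7.75 RPM (d4c7 FR10 replicate 1).

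**Figure D1:**
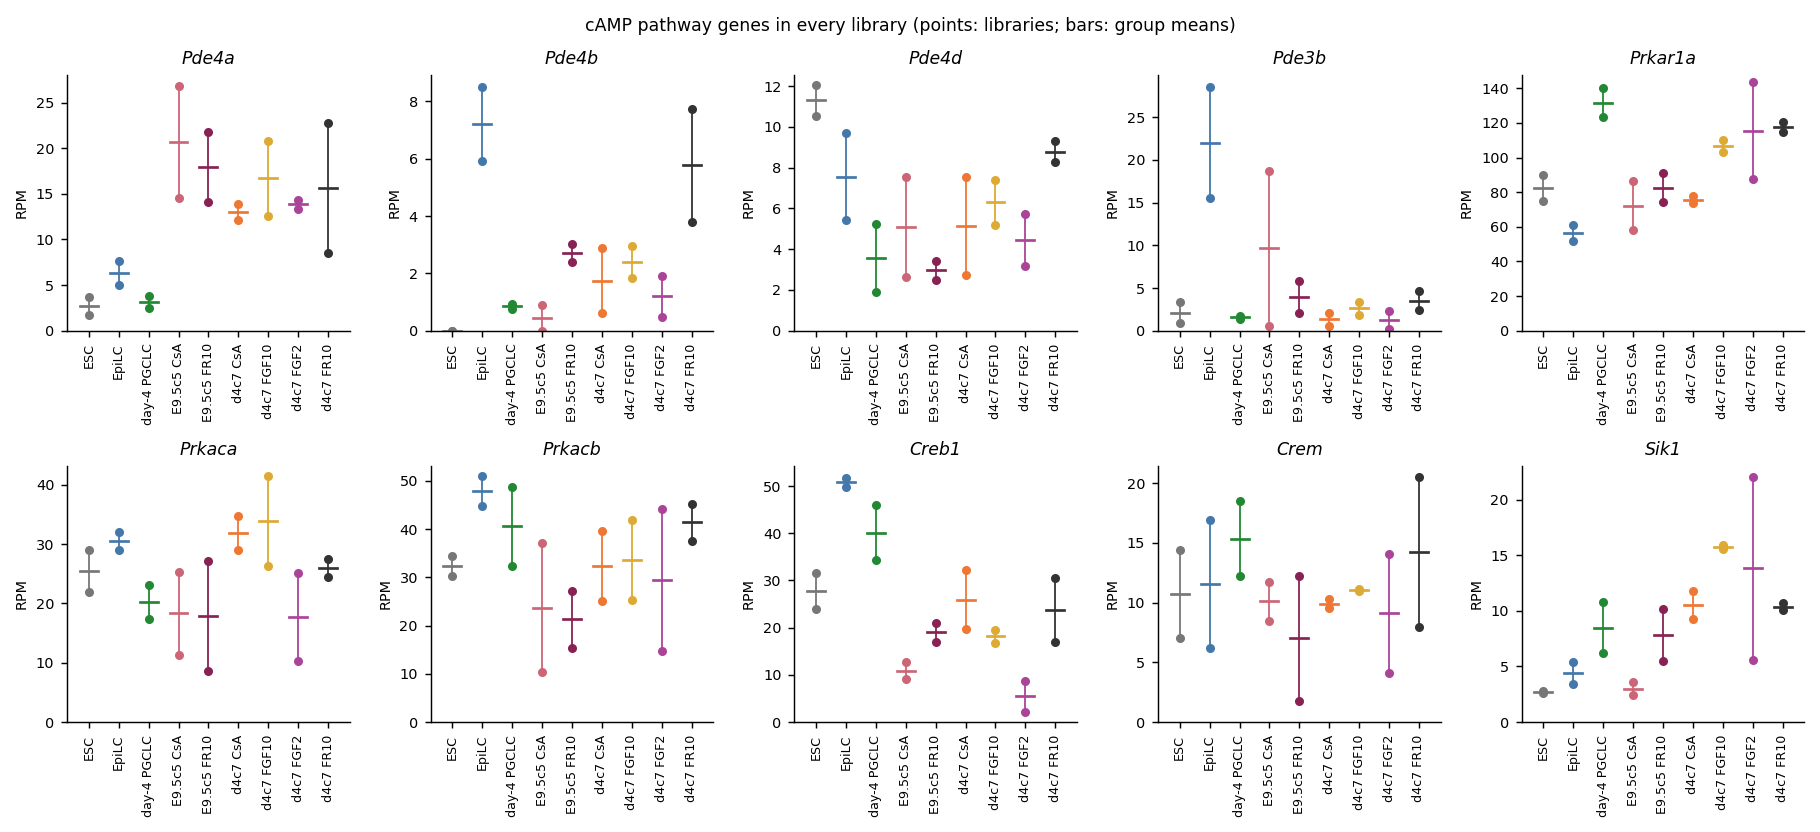
RPM of the 10 genes in every library (y axis, each panel with its own scale) by group (x axis). Points are libraries, a line joins the replicates of a group, and the short bar is their mean. All 12 cultured libraries lie above the 6 uncultured ones for Pde4a, and EpiLCs have the highest group mean for Pde3b.

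In EpiLCs the cGMP-inhibited phosphodiesterase Pde3b was higher than in ESCs. It had 28.6 and 15.5 RPM in EpiLCs, against 3.31 and 0.925 RPM in ESCs, and the groups did not overlap. The log2 difference of RPM + 1 was 2.94 ± 0.87 (standard error; limma with Benjamini-Hochberg adjustment over all genes tested, adjusted p = 0.0279). Pde3b was the 1 gene of the 9 called, where 16% of all genes tested were called in this comparison. Over all genes, 7.09% were called higher and 8.86% lower. The 9 genes had a median log2 difference of 0.53, against 0.01 over all genes tested. Leaving out any 1 library of the 2 groups ended the call, with log2 differences of 2.36 to 3.52 and adjusted p of 0.0553 (without ESC replicate 1), 0.234 (without ESC replicate 2), 0.2 (without EpiLC replicate 1) and 0.076 (without EpiLC replicate 2). It was also lost with no filter on low values (adjusted p = 0.0834) and with a pseudocount of 0.1 RPM (adjusted p = 0.0844). Creb1 stood at 51.8 and 49.9 RPM in EpiLCs, against 23.9 and 31.6 RPM in ESCs, without passing the test (adjusted p = 0.238, limma). Prkar1a was at 61.0 and 51.9 RPM in EpiLCs, against 89.8 and 74.9 RPM in ESCs, and did not pass either (adjusted p = 0.166, limma).

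Among 44 tested genes of the other pathway lists, 7 were higher and 4 lower in EpiLCs than in ESCs. Of all genes 16% were called, 7.09% higher and 8.86% lower. Prkar2b, a type II regulatory subunit, rose to 5.52 and 8.51 RPM in EpiLCs, against 0.265 and 0.555 RPM in ESCs (log2 difference 2.49 ± 0.47, adjusted p = 0.0013, limma). Pkia, a PKA inhibitor, rose by 2.51 ± 0.63 on this scale. Gnas, the stimulatory G protein subunit, had 343 and 313 RPM in EpiLCs, against 167 and 172 RPM in ESCs (0.95 ± 0.31), and Gnai1, an inhibitory one, rose by 1.39 ± 0.37 while Gnai2 fell by 0.77. Of other phosphodiesterases, Pde7a (1.35) and the cGMP-specific Pde5a (2.24) were higher and Pde8a fell by 2.92. Akap1, which anchors PKA at mitochondria, fell by 1.42. In the list of known CREB targets, Klf4 fell by 6.53 and the insulin receptor substrate Irs2 rose by 1.91. Whether CREB drove any gene of this list in these cells was not tested, here or in the comparisons below. The calls of Pde8a, Prkar2b, Akap1 and Klf4 held when any 1 library of the 2 groups was left out. Those of Gnai1, Gnai2, Gnas, Pde5a, Pde7a, Pkia and Irs2 were lost in at least 1 such fit, at adjusted p of 0.0578 (Pkia, without EpiLC replicate 1) to 0.287 (Gnai2, without EpiLC replicate 2).

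At the step to day-4 PGCLCs, Prkar1a rose and Pde3b fell. Prkar1a had 124 and 140 RPM in day-4 PGCLCs, against 61.0 and 51.9 RPM in EpiLCs, with no overlap. Its log2 difference was 1.21 ± 0.25 (adjusted p = 0.0010, limma). It passed in every alternative run, at 0.85 (adjusted p = 0.0256) with median-ratio scaling, which put the median of all genes in this comparison at -0.004, against 0.344 without it. Pde3b had 1.41 and 1.74 RPM in day-4 PGCLCs, against 28.6 and 15.5 RPM in EpiLCs. Its log2 difference was -3.10 ± 0.87 (adjusted p = 0.0097, limma). The Pde3b call was lost without EpiLC replicate 1 (-2.68, adjusted p = 0.0834) and without day-4 PGCLC replicate 1 (-3.01, adjusted p = 0.0601). These were 2 of 9 genes called, where 39.6% of all genes were, 27.5% higher and 12.1% lower. EpiLCs were unsorted and day-4 PGCLCs sorted, and sorting and stage cannot be told apart. Of 11 tested feeder and fibroblast markers, 3 were higher and 4 lower in day-4 PGCLCs. The 13 listed summed to 1181 and 1217 RPM in day-4 PGCLCs, against 439 and 398 RPM in EpiLCs, and 2194 and 2126 RPM in ESCs. Fn1 had 354 and 412 RPM in day-4 PGCLCs, against 140 and 139 RPM in EpiLCs, and Sparc 342 and 316 RPM, against 58.5 and 50.3 RPM. Dcn was at 0 in both day-4 libraries, against 16.8 and 10.1 RPM in EpiLCs. Thy1 was at 0 and 0.193 RPM, against 24.8 and 22.4 RPM. The sum therefore does not stand for feeder RNA as a whole.

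The make-up of the regulatory subunits also differed at this step. Prkar2a had 7.04 and 5.41 RPM in day-4 PGCLCs, against 62.1 and 48 RPM in EpiLCs. Its log2 difference was -2.95 ± 0.40 (adjusted p = 2.33e-05, limma), and the groups lay far apart. Prkar1a therefore made up 88.6% and 89.7% of the RPM of the 4 regulatory subunit genes in day-4 PGCLCs, against 47.3% and 47.4% in EpiLCs, and 62% and 58.2% in ESCs. In the 12 cultured libraries the share was 74% to 92.3%. Of the summed RPM of the catalytic subunits Prkaca and Prkacb, Prkaca made up 35.2% to 62.2% in cultured libraries, against 32.3% to 45.8% in uncultured ones. These shares are descriptions of each library and were not tested.

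**Figure D2:**
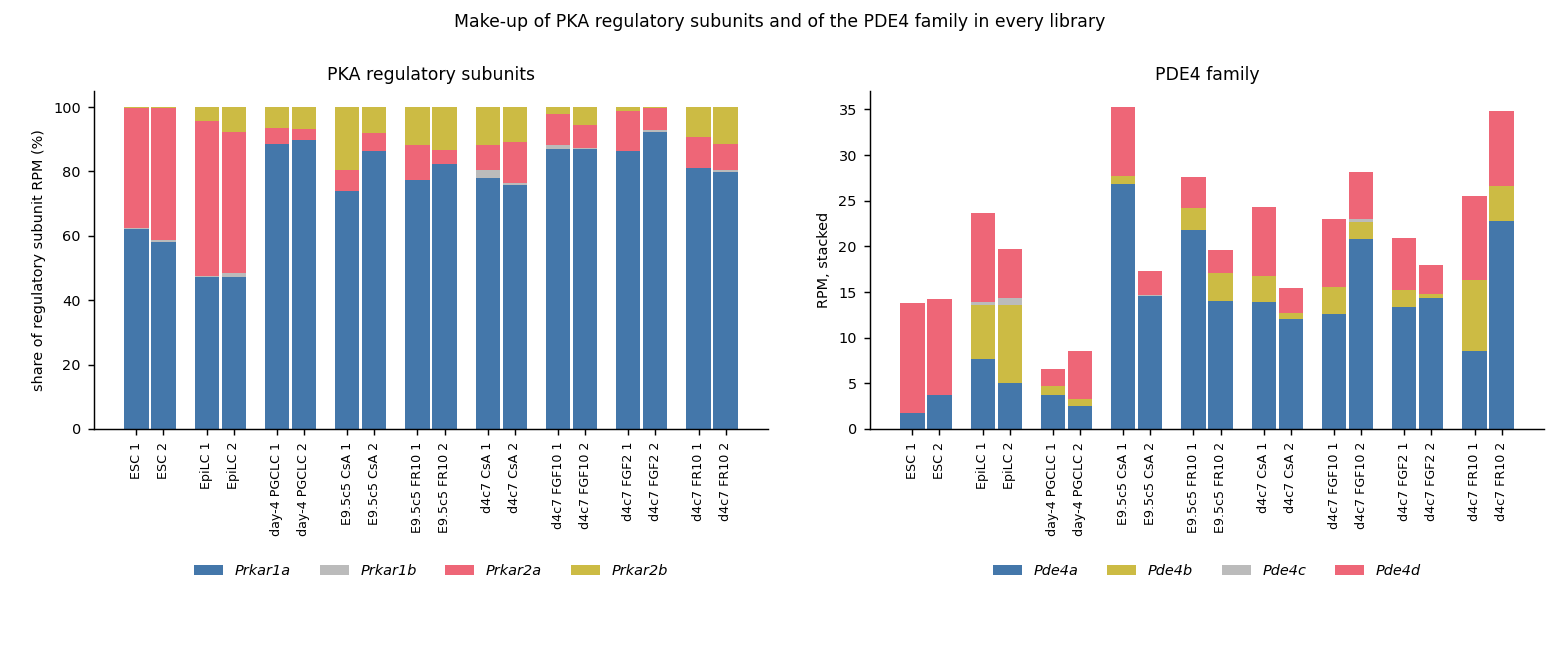
Left, the share (%) of each PKA regulatory subunit gene in their summed RPM. Right, stacked RPM of the 4 PDE4 genes. Each bar is a library, numbered by replicate within its group. Prkar1a makes up at most 62% in ESCs and EpiLCs and at least 74% in all other libraries, and Pde4a takes most of the PDE4 sum in every cultured library except d4c7 FR10 replicate 1.

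Other pathway genes at this step included 12 that rose and 4 that fell among 44 tested, and with median-ratio scaling 8 that rose and 5 that fell among 43. Of 12 tested genes in the list of known CREB targets, 5 rose and 2 fell. Of all genes 39.6% were called, 27.5% higher and 12.1% lower. Fos stood at 45.1 and 18.5 RPM in day-4 PGCLCs, against 0.191 and 0 RPM in EpiLCs (4.78 ± 0.53, adjusted p = 3.46e-06, limma). Junb rose to 83.6 and 47.1 RPM, against 4 and 5.8 RPM in EpiLCs (3.45 ± 0.43), and Id2 to 71.4 and 46 RPM, against 3.05 and 3.87 RPM (3.71 ± 0.46). Crtc2, a CREB coactivator, had 37.6 and 15.6 RPM in day-4 PGCLCs, against 1.91 and 1.94 RPM in EpiLCs (3.12 ± 0.54). Sik3, a salt-inducible kinase that phosphorylates such coactivators, rose by 2.83 ± 0.35. Gnas fell by 1.39, Akap1 rose by 1.73, and Mcl1, another listed CREB target, fell by 0.79. Gnai2 (0.99), the PKA inhibitor Pkig (1.05), Akap11 (1.33) and the coactivator Crebbp (0.89) were higher. The calls of Gnai2, Pkig, Akap11, Crebbp and Mcl1 were lost in at least 1 fit without 1 library of these groups, at adjusted p of 0.0507 (Mcl1, without EpiLC replicate 1) to 0.313 (Akap11, without EpiLC replicate 2). Pkig, Akap11 and Crebbp were also lost with median-ratio scaling.

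In forskolin and rolipram culture, Pde4a, a target of rolipram, was higher than before culture. It had 8.52 and 22.8 RPM in d4c7 FR10 cells, against 3.76 and 2.51 RPM in day-4 PGCLCs. The groups did not overlap, though the d4c7 FR10 replicates differed from each other by more than the day-4 libraries did. The log2 difference was 1.88 ± 0.49 (adjusted p = 0.016, limma), and Pde4a was the 1 of 9 genes called, where 15.2% of all genes were, 7.01% higher and 8.22% lower. The call was lost without day-4 PGCLC replicate 1 (2.10, adjusted p = 0.0585), day-4 PGCLC replicate 2 (1.66, adjusted p = 0.123) or d4c7 FR10 replicate 2 (1.22, adjusted p = 0.235), and with voom (2.27, adjusted p = 0.0506). Strain and culture changed together here and cannot be told apart. Pde4d stood at 9.29 and 8.29 RPM in d4c7 FR10 cells, against 1.88 and 5.21 RPM in day-4 PGCLCs (log2 difference 1.21, adjusted p = 0.157, limma). Creb1 stood at 30.6 and 16.9 RPM in d4c7 FR10 cells, against 34.3 and 46 RPM in day-4 PGCLCs (-0.78, adjusted p = 0.287, limma).

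Taken over all 4 d4c7 groups, which share the day-4 libraries and the FR10 libraries with the preceding comparison, Pde4a rose and the mean of Creb1 fell. Pde4a lay between 8.52 and 22.8 RPM with a median of 13.6 RPM in the 8 d4c7 libraries, against 3.76 and 2.51 RPM in day-4 PGCLCs (1.90 ± 0.39, adjusted p = 0.0013, limma). No d4c7 library reached down to the day-4 values. Pde4a passed in every alternative in which it was tested, with 1.68 to 2.12 when single libraries were left out. Creb1 lay between 2.19 and 32.1 RPM with a median of 18.3 RPM in the d4c7 libraries, against 34.3 and 46 RPM in day-4 PGCLCs (-1.34 ± 0.36, adjusted p = 0.0081, limma). By group it was lowest with FGF2, at 8.75 and 2.19 RPM. It had 30.6 and 16.9 RPM with FR10, 32.1 and 19.6 RPM with CsA and 16.7 and 19.6 RPM with FGF10. FR10 by itself gave no Creb1 call against day-4 PGCLCs, and the mean was not fitted without the FGF2 group. The Creb1 call was lost without day-4 PGCLC replicate 2 (-1.14, adjusted p = 0.126). These were 2 of 9 genes, where 35.4% of all genes were called, 12.3% higher and 23.1% lower.

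**Figure D3:**
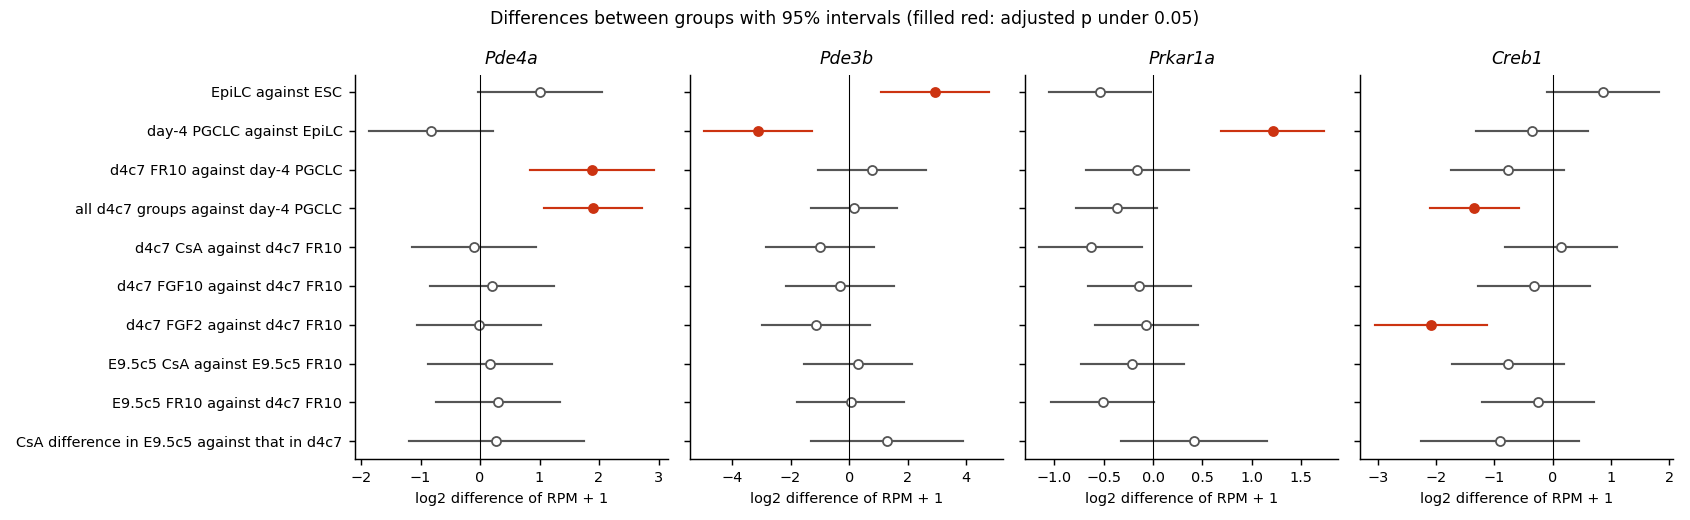
Log2 differences of RPM + 1 (x axis, each panel with its own scale) for Pde4a, Pde3b, Prkar1a and Creb1 in 10 comparisons (rows, the group named first minus the other). Lines are 95% intervals from limma, and filled red points passed an adjusted p of 0.05. Pde4a was called in both comparisons of d4c7 cells with day-4 PGCLCs and in none of the others plotted.

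Within the PDE4 family, Pde4a made up 33.3% to 83.7% of the summed RPM in cultured libraries, with a median of 72.9%, against 12.5% to 57.1% in uncultured ones, with a median of 27.8%. The sums were small, and rested on 14 reads in the sparsest library, day-4 PGCLC replicate 1. In ESCs Pde4d was the main member, at 12.1 and 10.5 RPM, and Pde4a had 1.72 and 3.7 RPM. In EpiLCs Pde4a had 7.62 and 5.03 RPM. In E9.5c5 cells Pde4a was at 26.8 and 14.5 RPM with CsA and at 21.8 and 14.1 RPM in FR10. Rolipram inhibits the products of all PDE4 genes. Pde7a encodes a cAMP-specific enzyme that rolipram does not inhibit well. It took 26.2% to 86.5% of the summed RPM of the Pde3, Pde4, Pde7 and Pde8 genes. Other listed genes with a phosphodiesterase name were outside this sum, among them the cGMP-specific Pde5a. Pde12, at 46.8 to 86 RPM, was outside it too and is not counted here as a cAMP phosphodiesterase.

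Feeder and fibroblast markers went both ways between d4c7 FR10 cells and day-4 PGCLCs. Of 11 tested, 4 rose and 1 fell in d4c7 FR10 cells, where 15.2% of all genes were called. The 13 markers listed summed to 1063 and 989.5 RPM in d4c7 FR10 cells, against 1181 and 1217 RPM in day-4 PGCLCs. Dcn, a fibroblast matrix gene, had 76.7 and 69.4 RPM in d4c7 FR10 cells, against 0 in both day-4 libraries. Sparc stood at 87.9 and 89.1 RPM in d4c7 FR10 cells, against 342 and 316 RPM in day-4 PGCLCs. Vim stood at 127 and 152 RPM, against 429 and 410 RPM. Lum and Thy1 were at 0 in both d4c7 FR10 libraries, and Dcn and Lum in both day-4 PGCLC libraries. Over all d4c7 libraries 3 markers rose and 2 fell, where 35.4% of all genes were called, and the sums ran from 294 to 1063 RPM. In these 8 libraries Dcn lay between 10.6 and 88.3 RPM and Pde4a between 8.52 and 22.8 RPM. The part of feeder RNA in the Pde4a result was not tested.

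Among 44 tested genes of the other pathway lists, 4 rose and 6 fell in d4c7 FR10 cells against day-4 PGCLCs. With median-ratio scaling 4 rose and 5 fell among 43. Of 12 tested CREB targets in the list, 4 were called lower and none higher. Of all genes 15.2% were called, 7.01% higher and 8.22% lower. With median-ratio scaling 3 of 11 CREB targets were called lower and none higher. The comparison shares the day-4 libraries with the one against EpiLCs. Fos stood at 8.13 and 5.87 RPM in d4c7 FR10 cells, against 45.1 and 18.5 RPM in day-4 PGCLCs (-1.92 ± 0.53, adjusted p = 0.0212, limma). Junb fell by 1.83 and Jun by 2.42. Id2 was at 0 in both d4c7 FR10 libraries, against 71.4 and 46 RPM in day-4 PGCLCs. Crtc2 stood at 1.55 and 1.04 RPM in d4c7 FR10 cells, against 37.6 and 15.6 RPM in day-4 PGCLCs (-3.48 ± 0.54, adjusted p = 0.00035, limma). Sik3 rose further, to 151 and 146 RPM in d4c7 FR10 cells, against 62 and 41.7 RPM in day-4 PGCLCs (1.53 ± 0.35). Cap1, an adenylyl cyclase-associated protein that acts on actin, had 61.2 and 68 RPM in d4c7 FR10 cells, against 2.35 and 1.55 RPM (4.49 ± 0.39). Gnai1 rose by 2.17 and Gnai2 fell by 1.53, and Pde8a rose by 2.22. The calls of Pde8a, Sik3, Jun, Junb and Fos were lost in at least 1 fit without 1 library of these groups, at adjusted p of 0.0508 (Sik3, without d4c7 FR10 replicate 2) to 0.258 (Fos, without day-4 PGCLC replicate 1). Jun was not tested with median-ratio scaling. With a pseudocount of 0.1 RPM the calls of Jun and Fos were lost (adjusted p = 0.121 each, limma). That of Fos was also lost with no filter on low values (adjusted p = 0.0601, limma).

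Over all d4c7 groups against day-4 PGCLCs, 6 of 44 other pathway genes rose and 12 fell. Of all genes 35.4% were called, 12.3% higher and 23.1% lower. With median-ratio scaling 7 of 43 rose and 11 fell, and of all genes 1677 were called higher and 1541 lower. Beside genes already named, Gnai3 (-1.14), the anchoring proteins Akap2 (-1.76) and Akap12 (-1.15), Pde5a (-1.48) and Rap1b (-0.85), a GTPase downstream of cAMP, were lower, and the coactivator Ep300 (0.95) was higher. Of these, the call of Gnai3 held in each fit without 1 library. The calls of Akap2, Akap12, Pde5a, Rap1b and Ep300 were lost without day-4 PGCLC replicate 1, replicate 2 or either, at adjusted p of 0.0546 (Akap2, without replicate 2) to 0.34 (Ep300, without replicate 2).

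**Figure D4:**
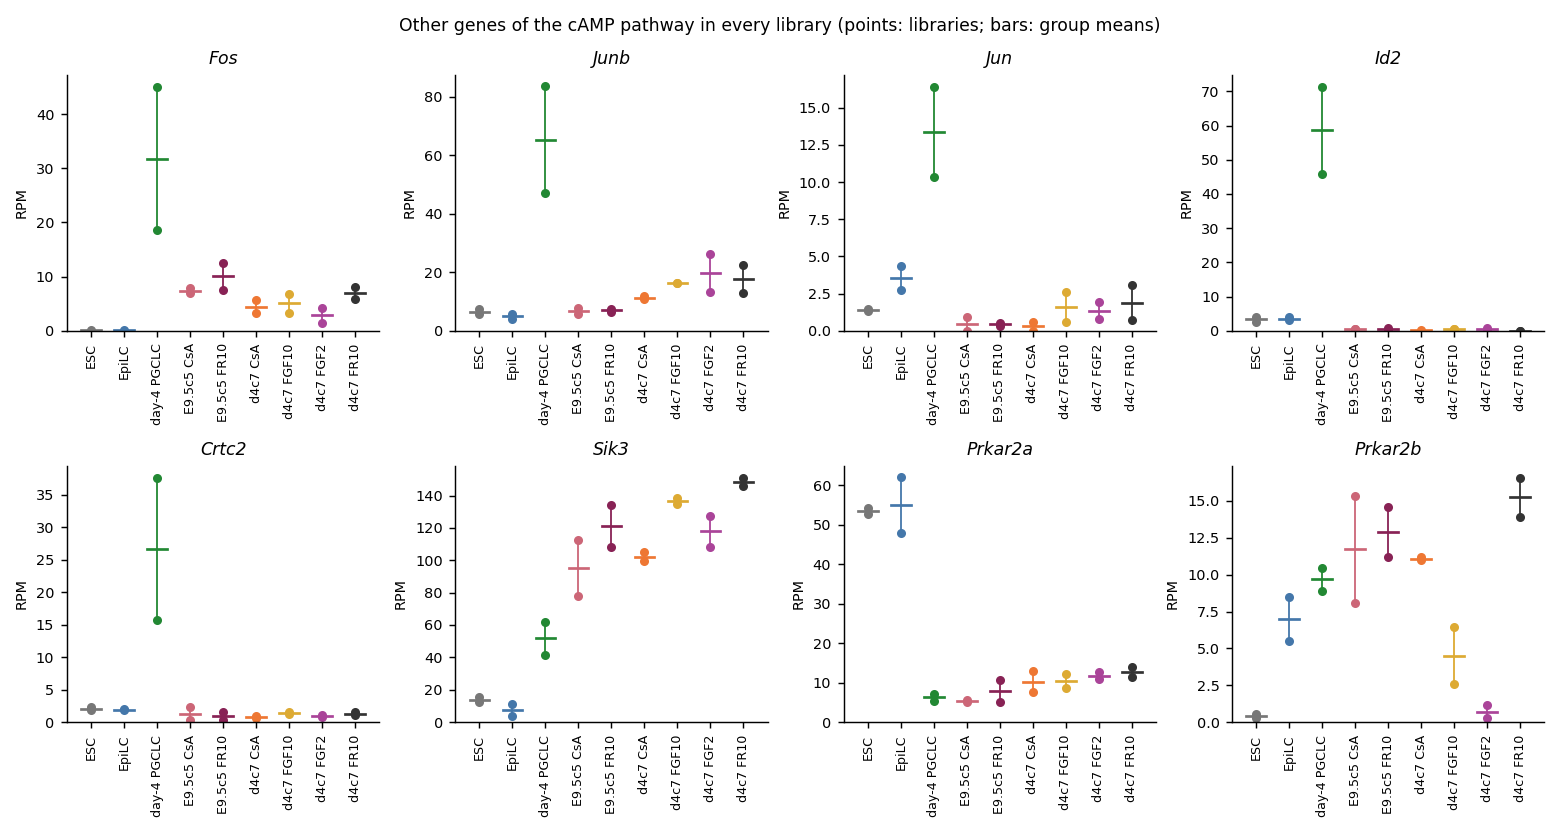
RPM of 8 other pathway genes in every library (y axis, each panel with its own scale) by group (x axis). Points are libraries, a line joins the replicates of a group, and the short bar is their mean. Fos, Junb, Jun, Id2 and Crtc2 stand highest in day-4 PGCLCs, and Prkar2b lies at 1.14 RPM or below in d4c7 FGF2.

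With FGF2, Creb1 was lower than in FR10 culture. It had 8.75 and 2.19 RPM in d4c7 FGF2 cells, against 30.6 and 16.9 RPM in d4c7 FR10 cells, and the groups did not overlap. The log2 difference was -2.09 ± 0.45 (adjusted p = 0.0173, limma), 1 of 9 genes called where 8.84% of all genes were, 1.37% higher and 7.47% lower. The call was lost without d4c7 FR10 replicate 1 (-1.68, adjusted p = 0.2) and without d4c7 FGF2 replicate 2 (-1.29, adjusted p = 0.157). It was also lost in a fit of these 2 groups alone (adjusted p = 0.191). Without all 3 libraries that stood apart it was -1.29 (adjusted p = 0.0374). The median of all genes was -0.326 in this comparison, and -0.025 with median-ratio scaling, under which Creb1 was at -1.82 (adjusted p = 0.0279). Of 11 tested feeder markers, 3 fell and none rose. The 13 markers summed to 666 and 294 RPM in d4c7 FGF2 cells, against 1063 and 989.5 RPM in d4c7 FR10 cells, with Lum and Thy1 at 0 in both groups. Of these sums, Fn1 made up 334.5 and 117.6 RPM in d4c7 FGF2 cells, against 608.3 and 547.9 RPM in d4c7 FR10 cells. The part of these markers in the Creb1 result was not tested.

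Of 44 other pathway genes tested in FGF2 culture against FR10, 3 fell and none rose, where 1.37% of all genes were called higher and 7.47% lower. Prkar2b fell most. It had 1.14 and 0.243 RPM in d4c7 FGF2 cells, against 13.9 and 16.6 RPM in d4c7 FR10 cells (-3.31 ± 0.47, adjusted p = 0.0022, limma). The call was lost without d4c7 FR10 replicate 1 (-3.43, adjusted p = 0.0552) and in the fit of the 2 groups alone (adjusted p = 0.179). Prkar2b stood at 2.6 and 6.43 RPM in d4c7 FGF10 and at 11 and 11.2 RPM in d4c7 CsA. Pde7a (-1.51) and Gnai3 (-0.87) fell as well, with 38.1 and 21.4 RPM of Pde7a in d4c7 FGF2 cells, against 81.7 and 84.2 RPM in d4c7 FR10 cells. Their calls were lost when single libraries were left out (Pde7a at adjusted p of 0.112 without d4c7 FR10 replicate 2, 0.2 without d4c7 FR10 replicate 1 and 0.243 without d4c7 FGF2 replicate 2; Gnai3 at 0.0782 to 0.33 in each such fit). With median-ratio scaling both missed the threshold (adjusted p = 0.051 for Pde7a and 0.154 for Gnai3), and 1 pathway gene rose and 1 fell, in place of none and 3.

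With FGF10 none of the 9 genes was called against FR10, and the log2 differences ran from -0.44 (Pde4d) to 0.56 (Sik1). Of all 9561 genes none (0%) was called by limma, with 477 at an unadjusted p under 0.05, and none by voom. Pde4a was at 12.6 and 20.8 RPM in d4c7 FGF10 cells, against 8.52 and 22.8 RPM in d4c7 FR10 cells. The 95% interval of its log2 difference ran from -0.85 to 1.24, and so spanned differences of either sign.

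With CsA, an inhibitor of calcineurin, none of the 9 genes was called in d4c7 cells, where 0.0314% of all genes were, 0.0209% higher and 0.0105% lower. The spread in this fit was shared over all groups. The share of all genes called depended strongly on the 3 libraries that stood apart, as given at the end. None of these libraries is in the groups compared here. Prkar1a had 73.5 and 78 RPM in d4c7 CsA cells, against 120 and 115 RPM in d4c7 FR10 cells. Its log2 difference of -0.63 (95% interval -1.15 to -0.11) had an adjusted p of 0.277 (limma). Without the 3 libraries that stood apart the adjusted p was 0.0209, and with median-ratio scaling the difference was -0.40. The median of all genes was -0.236 here, and -0.016 with that scaling. Pde4a was at 13.9 and 12.1 RPM in d4c7 CsA cells, against 8.52 and 22.8 RPM in d4c7 FR10 cells (95% interval -1.15 to 0.93).

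In cells from embryos, CsA likewise gave no call among the 9 genes or over all genes (0% of 9561, with 703 at an unadjusted p under 0.05, and 1 gene called by voom). Sik1, a salt-inducible kinase whose gene is a known CREB target, had 2.41 and 3.58 RPM in E9.5c5 CsA cells, against 10.2 and 5.53 RPM in E9.5c5 FR10 cells. Its log2 difference was -1.11 (95% interval -2.22 to -0.01, adjusted p = 0.673, limma). Pde3b replicates were far apart in E9.5c5 CsA cells, at 0.603 and 18.7 RPM, against 2.04 and 5.78 RPM in E9.5c5 FR10 cells. Replicate 2, the higher, is among the libraries that stood apart. The CsA difference in E9.5c5 cells was compared with that in d4c7 cells by an interaction contrast. None of the 9 genes was called (0% of all genes, with 616 at an unadjusted p under 0.05 and no voom call), and the smallest adjusted p was 0.859 (Pde4d).

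Between cell sources in the same FR10 medium, none of the 9 genes was called, where 0.0418% of all genes were, 0.0314% higher and 0.0105% lower. Pde4d stood at 3.4 and 2.51 RPM in E9.5c5 FR10 cells, against 9.29 and 8.29 RPM in d4c7 FR10 cells (-1.31, adjusted p = 0.289, limma). Pde4a was at 21.8 and 14.1 RPM in E9.5c5 FR10 cells, against 8.52 and 22.8 RPM in d4c7 FR10 cells. Source, strain, reporter and length of culture changed together in this comparison and cannot be told apart.

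By order of group means, Pde4a ran from 20.7 RPM in E9.5c5 CsA to 2.71 RPM in ESC. The ranges of replicates overlapped between neighbours in this order, except between d4c7 CsA and EpiLC and between EpiLC and day-4 PGCLC. Creb1 ran from 50.9 RPM in EpiLC to 5.47 RPM in d4c7 FGF2. Crem was highest in day-4 PGCLCs, at a mean of 15.4 RPM, and lowest in E9.5c5 FR10, where its replicates stood at 12.3 and 1.76 RPM. None of its neighbours was separate, and the same held for Prkacb and Pde3b. How often groups of 2 libraries lay apart over all genes was not counted, so a lack of overlap only describes these libraries, here and above. Sik1 ran from 15.8 RPM in d4c7 FGF10 to 2.69 RPM in ESC. Its 2 d4c7 FGF2 libraries stood at 22.1 and 5.59 RPM, the highest and the lowest value in d4c7 cells. Prkaca was lowest in replicate 2 of the 3 groups with the widest replicate gaps, at 10.2 RPM in d4c7 FGF2, 8.54 RPM in E9.5c5 FR10 and 11.3 RPM in E9.5c5 CsA, and lay at 17.4 RPM or above in every other library.

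The genes with the most similar pattern to 3 of the members were sought over the 9 group means of log2(RPM + 1), as a description with no test. For Pde4a they were Gde1 (Pearson r = 0.974), Abca2 (0.973) and Mov10l1 (0.971), the last a germline piRNA helicase. For Creb1 they were Fbxl14 (0.976), Slc35e2 (0.973) and Ankrd28 (0.967). For Sik1 they were Rbm20 (0.984), Gas8 (0.972) and Kif16b (0.941). The means of each gene come from the same libraries, depth and normalization, and these genes were picked as the most alike among 9561.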

How the data were processed

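RNA of 18 mouse libraries was sequenced by SC3-seq, a 3′-end method, per the labels. The authors deposited RPM per gene and library. The submitters' processing notes list cutadapt 1.3, TopHat 1.4.1, Cufflinks 2.2.0 and build mm10; the counting rules and the annotation are not known, so reads of genes with near-identical 3′ ends may be split or lost. RPM totals were 999098 to 999617, and 34896 genes were listed, 46 of them with no value. Groups came from the labels. The main test was limma 3.58.1 in R 4.3.3 on log2(RPM + 1), with empirical Bayes and a variance trend, all 18 libraries and 1 mean per group. Genes reaching 10 RPM in at least 2 libraries (9561) were tested, with Benjamini-Hochberg adjustment at 0.05 over all of them. A fold change on this scale understates changes of low genes. With 2 libraries a group, the spread was shared over all groups (9 residual degrees of freedom).

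The deposited values are RPM, not counts, so count tests were not run. The fit was tested on simulated data, with 200 changed genes each time. In d4c7 FR10 against day-4 PGCLC, 4-fold changes were recovered for 84.5% of them and 2-fold changes for 12.5%. In d4c7 CsA against d4c7 FR10 the rates were 80% and 23%. These rates pool the changed genes and were not split by expression level or replicate spread. They therefore give no recovery rate for low genes such as Pde3b, Pde4d and Pde4b, or for the groups with wide replicate gaps. Named pathway genes were up to 4 called genes per list and comparison, by smallest p. The genes most like Pde3b in pattern are not reported here. The members and lists were chosen with earlier results of these data known. The alternatives were other pseudocounts, filters, scaling, sets of libraries, a replicate block and voom; their effect is given at the end. Promoters are from RefSeq (GRCm38.p6). Read numbers were inferred from the RPM steps, of which 99.7% to 99.8% of low values were whole within 0.02, and floors of 3 reads cover counting error only.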

Additional observations from a re-analysis of the deposited data

How the results depend on the processing

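None of the differences of single genes followed across the alternatives changed sign, whereas the balance of higher and lower calls over all genes turned with median-ratio scaling in the comparisons given at the end. The numbers that follow are how many of the 9 tested members passed. In EpiLC against ESC it was 1, and 0 with a pseudocount of 0.1 RPM, 0 with a filter of 50 RPM, 3 without the 3 libraries that stood apart, 2 with voom (an alternative chosen after seeing the data), 4 with only the groups compared, and 0 to 0 leaving out single replicates. In day-4 PGCLC against EpiLC it was 2, and 1 with the 50 RPM filter and 1 to 2 leaving out replicates. In d4c7 FR10 against day-4 PGCLC it was 1, and 0 with the 50 RPM filter, 0 with voom and 0 to 1 leaving out replicates. Over all d4c7 groups it was 2, and 0 with the 50 RPM filter and 1 to 2 leaving out replicates. In d4c7 CsA against FR10 it was 0, and 1 without the 3 libraries. In d4c7 FGF2 against FR10 it was 1, and 0 with the 50 RPM filter, 0 with only the groups compared and 0 to 1 leaving out replicates. With the 50 RPM filter only Prkar1a among the members was tested; the cause of the other changes was not tested. Of single members' differences, each counted once per alternative, 141 kept their side of the threshold, 16 lost and 1 gained a call. The 141 include differences that were not called in the main fit and stayed so. Of those of other pathway genes, 675 kept their side and 83 lost the call.

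Replicate numbers gave no common pairing over all groups: correlations of same-numbered deviations were -0.102 to 0.34, above 0.1 in 7 of 36 pairs of groups. The value was 0.34 for E9.5c5 CsA and E9.5c5 FR10. It was 0.128 for E9.5c5 FR10 and d4c7 FR10, and 0.104 for d4c7 FGF2 and d4c7 FR10. Same-numbered libraries of these groups thus deviated partly together. With a replicate block the members called stayed at 1, 2, 1, 2, 0, 0, 1, 0, 0 and 0, and all genes called came to 1621, 3938, 1555, 3560, 5, 0, 1163, 1, 8 and 0, in the order of the comparisons in the report's plot of differences. The number of all genes called moved by over 1.5 times in EpiLC against ESC (1525; 851 at 50 RPM, 2821 without the 3 libraries, 3182 with the groups alone), in day-4 PGCLC against EpiLC (3784; 2256 at 50 RPM), in d4c7 FR10 against day-4 PGCLC (1456; 806, 2964 and 2399), over all d4c7 groups (3382; 1935 at 50 RPM), in d4c7 CsA (3; 968 without the 3 libraries, otherwise 0 to 37), d4c7 FGF10 (0; 39 with no filter, 36 without the 3 libraries) and d4c7 FGF2 (845; 421 with no filter, 551 with median-ratio scaling, 0 with the groups alone) against d4c7 FR10, in E9.5c5 CsA against E9.5c5 FR10 (0; up to 9), in E9.5c5 FR10 against d4c7 FR10 (4; 0 to 50) and in the CsA difference (0; 1 with no filter). Leaving out single replicates gave 826 to 942, 2329 to 2761, 573 to 825, 1696 to 3712, 0 to 0, 0 to 0, 5 to 1722, 0 to 654 (the highest without E9.5c5 CsA replicate 1), 0 to 259 (the highest without E9.5c5 FR10 replicate 1) and 0 to 6. Median-ratio scaling changed the split of all called genes to 1654 higher and 1805 lower, in place of 2629 and 1155, in day-4 PGCLC against EpiLC, to 759 and 666, in place of 670 and 786, in d4c7 FR10 against day-4 PGCLC, to 1677 and 1541, in place of 1175 and 2207, over all d4c7 groups, and to 291 and 260, in place of 131 and 714, in FGF2. The edgeR and DESeq2 alternatives were not run, because the RPM values could not be turned into whole reads for all genes. At these depths Pde4b, Pde3b and other genes near 1 RPM rest on a handful of reads.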
